A study of Mus musculus with 24 samples.

Results

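The 9 genes described here carry the vascular endothelial growth factor (VEGF) and angiopoietin signals. They are the ligands *Vegfa*, *Vegfb*, *Vegfc* and *Angpt1*, the receptor tyrosine kinases *Tek*, *Kdr* and *Flt1*, and the co-receptors *Nrp1* and *Nrp2*. They were picked out by gene symbol, 9 of the 53392 genes listed for each library, and all 9 were found. The reads of all annotated transcripts of a gene were added together.

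RNA-seq was performed on 24 libraries in 8 groups of 3, from WT mice (C57BL/10ScSnJ, labelled Pax7-nGFP) and dystrophin-deficient *mdx* mice (C57BL/10ScSn-Dmd mdx/J, labelled mdx.Pax7-nGFP). Muscle stem cells (MuSCs) were sorted from hindlimb muscle as GFP+ ITGA7+ cells lacking CD31, CD45, SCA1 and CD11b, either from resting muscle (freshly isolated, FiMuSC) or 3 days after 10 µM cardiotoxin (activated, AMuSC). Myoblasts were separated magnetically on α7-integrin after removal of the same 4 lineage markers, grown with basic FGF, and differentiated for 2 days into myotubes. The sort thus selected for the *Pax7* reporter in both genotypes, and its purity was not measured. The age of the mice and whether a library pools several mice are not given in the sources used here, so the p-values measure the spread between these libraries. A different RNA kit was used for sorted and for cultured cells, so that cell source and kit cannot be told apart, and no test was made between sorted and cultured cells.

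VEGF-A is the main growth signal for blood vessels and acts through *Kdr* (VEGFR2), while *Flt1* (VEGFR1) binds VEGF-A and VEGF-B tightly and its soluble form acts as a decoy. VEGF-C acts mainly on lymphatic vessels, and the neuropilins *Nrp1* and *Nrp2* present VEGFs to these receptors and also bind class 3 semaphorins. Angiopoietin 1, made by *Angpt1*, activates the receptor TIE2, made by *Tek*. In muscle these receptors are best known from the endothelial cells of the capillaries that lie beside MuSCs, and *Tek* has also been described on quiescent MuSCs themselves.

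The library totals ran from 37280196 to 64429222 estimated reads. *Pax7* was between 331 and 1971 CPM (the read count relative to library size, scaled over all 24 libraries) in the 12 sorted libraries. *Dmd* was lower in the *mdx* libraries of FiMuSCs, at 139 to 150 against 230 to 262 CPM, and of myotubes, at 38.1 to 47.1 against 205 to 230 CPM. It was low and overlapped between genotypes in AMuSCs and myoblasts. Markers of other cells were present despite the sort. The summed level of 15 endothelial markers was 241 to 355 CPM in WT FiMuSCs and 365 to 947 CPM in *mdx* FiMuSCs, with the highest value in *mdx* replicate 1. It was 23.2 to 52.0 CPM in WT AMuSCs and 36.7 to 78.8 CPM in *mdx* AMuSCs. In cultured myoblasts the same sum was 16.5 to 46.0 CPM in WT and 25.8 to 56.6 CPM in *mdx*, ranges that overlap those of AMuSCs. *Pecam1* alone gave 42.2 of the 52.0 CPM in WT AMuSC replicate 2. Its mean was 22.1 CPM in WT and 12.3 CPM in *mdx* AMuSCs, the opposite order to the sums. The 11 macrophage markers summed to 64.3 to 310.5 CPM in WT and 420 to 1437 CPM in *mdx* FiMuSCs, to 11.1 to 31.2 CPM in WT AMuSCs, and to 4540, 158 and 314 CPM in the 3 *mdx* AMuSC libraries. No marker of either list was at 0 in every library of a sorted group. In bulk RNA, fewer cells of a type and less RNA per cell cannot be told apart.

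Levels were compared between genes as TPM, a unit corrected for transcript length, summed over protein-coding transcripts. In WT FiMuSCs *Tek* was at 25.6 ± 1.98 TPM (SD, n = 3) and *Vegfa* at 25.0 ± 2.98 TPM, the highest of the 9 genes. There *Vegfb* was at 10.1 ± 0.79 TPM, and the means of the other 6 genes lay between 1.21 and 4.12 TPM. In *mdx* FiMuSCs *Nrp1* was highest at 16.3 ± 0.93 TPM, followed by *Tek* at 12.7 ± 4.41 TPM. Among the cultured cells, *Vegfa* was the highest member in myoblasts, at 52.2 ± 6.73 TPM in WT and 46.3 ± 9.78 TPM in *mdx*. *Vegfb* was the highest in myotubes, at 22.8 ± 0.40 and 21.9 ± 2.67 TPM. Short transcripts without a coding sequence took up much of the full TPM of 2 members. Tek-204, 361 bases long, held 44.9% of *Tek* TPM in WT FiMuSCs but 2.15% of its reads, and Vegfa-209, 463 bases long, held 36.9% of *Vegfa* TPM and 6.46% of its reads. The comparisons therefore use CPM, which do not depend on this split and are read within a gene only.

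The transcripts of *Vegfa* differ in exons 6 and 7, which encode the basic, heparin-binding part of the protein and so set how far it diffuses from the cell. These 2 exons, read from GENCODE M21 on GRCm38, are shown because the forms of *Vegfa* are told apart by them. Exon 6 is at chr17:46022277-46022348 (minus strand, 72 bases, coding) and exon 7 at chr17:46020991-46021122 (minus strand, 132 bases, coding). The annotated soluble transcript of *Flt1* differs from that of the full receptor by a coding end at chr5:147639130-147639224 (minus strand, 95 bases), whose stop codon is in capitals.
Vegfa exon 6: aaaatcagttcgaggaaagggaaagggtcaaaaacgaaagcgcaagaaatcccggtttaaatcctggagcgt
Vegfa exon 7: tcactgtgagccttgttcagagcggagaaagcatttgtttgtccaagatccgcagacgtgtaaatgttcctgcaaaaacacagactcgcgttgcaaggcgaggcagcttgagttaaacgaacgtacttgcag
Flt1 soluble coding end: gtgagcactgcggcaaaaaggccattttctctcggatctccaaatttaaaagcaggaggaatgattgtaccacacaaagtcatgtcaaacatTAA

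*Vegfa* (ENSMUSG00000023951, GRCm38 chr17:46016993-46032369, minus strand) gave 104, 101 and 105 CPM in the WT FiMuSC libraries and 30.5, 22.9 and 26.8 CPM in the *mdx* libraries. All *mdx* libraries lay below all WT libraries. The log2 fold change of *mdx* against WT was −1.94 ± 0.12 (SE), with an edgeR adjusted p of 0.000927. *Vegfb* (chr19:6982473-6987651, minus strand) gave 13.6, 14.2 and 11.9 CPM in WT and 13.7, 8.78 and 9.45 CPM in *mdx*. These ranges overlapped, and the log2 fold change of −0.30 ± 0.20 did not pass the test (edgeR adjusted p = 0.395). For *Vegfc* (chr8:54077606-54187096, plus strand) the values were 10.9, 5.80 and 4.43 CPM in WT and 15.3, 14.0 and 12.4 CPM in *mdx*. The groups did not overlap, and the log2 fold change of 0.99 ± 0.33 missed the threshold (edgeR adjusted p = 0.117). It passed with DESeq2 (adjusted p = 0.0227), in a fit of all 24 libraries (adjusted p = 0.0198) and without WT replicate 1 (adjusted p = 0.0140).

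*Angpt1* (chr15:42424723-42676977, minus strand), the TIE2 agonist, gave 11.4, 7.54 and 8.76 CPM in WT FiMuSCs and 44.4, 40.0 and 37.8 CPM in *mdx* FiMuSCs. The lowest *mdx* library was above the highest WT library by more than the range within either group. Its log2 fold change was 2.15 ± 0.17 (edgeR adjusted p = 0.00174). Its receptor gene *Tek* (chr4:94739289-94874976, plus strand) went the other way. *Tek* gave 155, 137 and 124 CPM in WT and 94.1, 57.0 and 52.4 CPM in *mdx* FiMuSCs, again without overlap. The log2 fold change was −1.02 ± 0.24, just past the threshold (edgeR adjusted p = 0.0451). This call was lost without any 1 of WT replicates 1, 2 and 3 or *mdx* replicates 2 and 3 (adjusted p from 0.0990 to 0.149), without a filter on low counts (0.0622) and in a fit of all 24 libraries (0.713), although the log2 fold change stayed between −1.34 and −0.86 when single libraries were left out.

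*Flt1* (chr5:147561604-147726011, minus strand) gave 36.1, 22.3 and 25.8 CPM in WT and 99.8, 49.1 and 58.7 CPM in *mdx* FiMuSCs. The groups did not overlap, and the log2 fold change was 1.31 ± 0.31 (edgeR adjusted p = 0.0469). The call was lost without any 1 of WT replicates 1, 2 and 3 or *mdx* replicates 2 and 3 (adjusted p from 0.0549 to 0.159), without a filter on low counts (0.118) and in a fit of all 24 libraries (0.448). *Kdr* (chr5:75932827-75978458, minus strand) gave 26.1, 6.96 and 12.1 CPM in WT and 96.6, 18.8 and 12 CPM in *mdx*. One *mdx* library, replicate 1, lay far above the other 5 libraries, which overlapped, and the log2 fold change of 1.52 ± 0.87 did not pass (edgeR adjusted p = 0.334). Without *mdx* replicate 1 it was 0.04 for *Kdr* (adjusted p = 0.978) and 0.94 for *Flt1* (adjusted p = 0.0408). That library also had the highest endothelial marker sum, 947 CPM against 365 and 385 CPM in the other *mdx* FiMuSC libraries. The part of endothelial RNA in these values was not tested.

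Both co-receptors were higher in *mdx* FiMuSCs. *Nrp1* (chr8:128358604-128503363, plus strand) gave 21.5, 10.5 and 11.4 CPM in WT and 68.9, 65.6 and 74.4 CPM in *mdx*. The *mdx* libraries were close to each other and well above every WT library, with a log2 fold change of 2.27 ± 0.28 (edgeR adjusted p = 0.00658). *Nrp2* (chr1:62703285-62818695, plus strand) gave 14.4, 6.64 and 7.43 CPM in WT and 40.4, 28.1 and 31.2 CPM in *mdx*. Its log2 fold change was 1.82 ± 0.32 (edgeR adjusted p = 0.0204), and the call was lost without WT replicate 2 or 3 or without *mdx* replicate 2 or 3 (adjusted p from 0.0610 to 0.0861).

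In FiMuSCs 6 of the 9 members were called, 4 higher and 2 lower in *mdx*, where 9.67% of all 19406 genes tested were called, 5.82% higher and 3.85% lower. Groups without overlap were seen in 31.8% of all genes tested. Their median log2 fold change was 1.31, against −0.002 for all genes tested. The count was 3 without WT replicate 2 or 3 or *mdx* replicate 2 or 3, and *Vegfa*, *Angpt1* and *Nrp1* passed in each of these fits. Of the 15 endothelial markers 2 were higher and none lower in *mdx* FiMuSCs, with a median log2 fold change of 1.14, and *Esam* and *Sox17* were the 2 that passed. Of the 11 macrophage markers 7 were higher, with a median of 3.27. The medians of both marker lists thus had the sign of *Angpt1*, *Flt1*, *Nrp1* and *Nrp2* and the opposite sign to *Vegfa* and *Tek*. Their part in the members' differences was not tested.

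**Figure D1:**
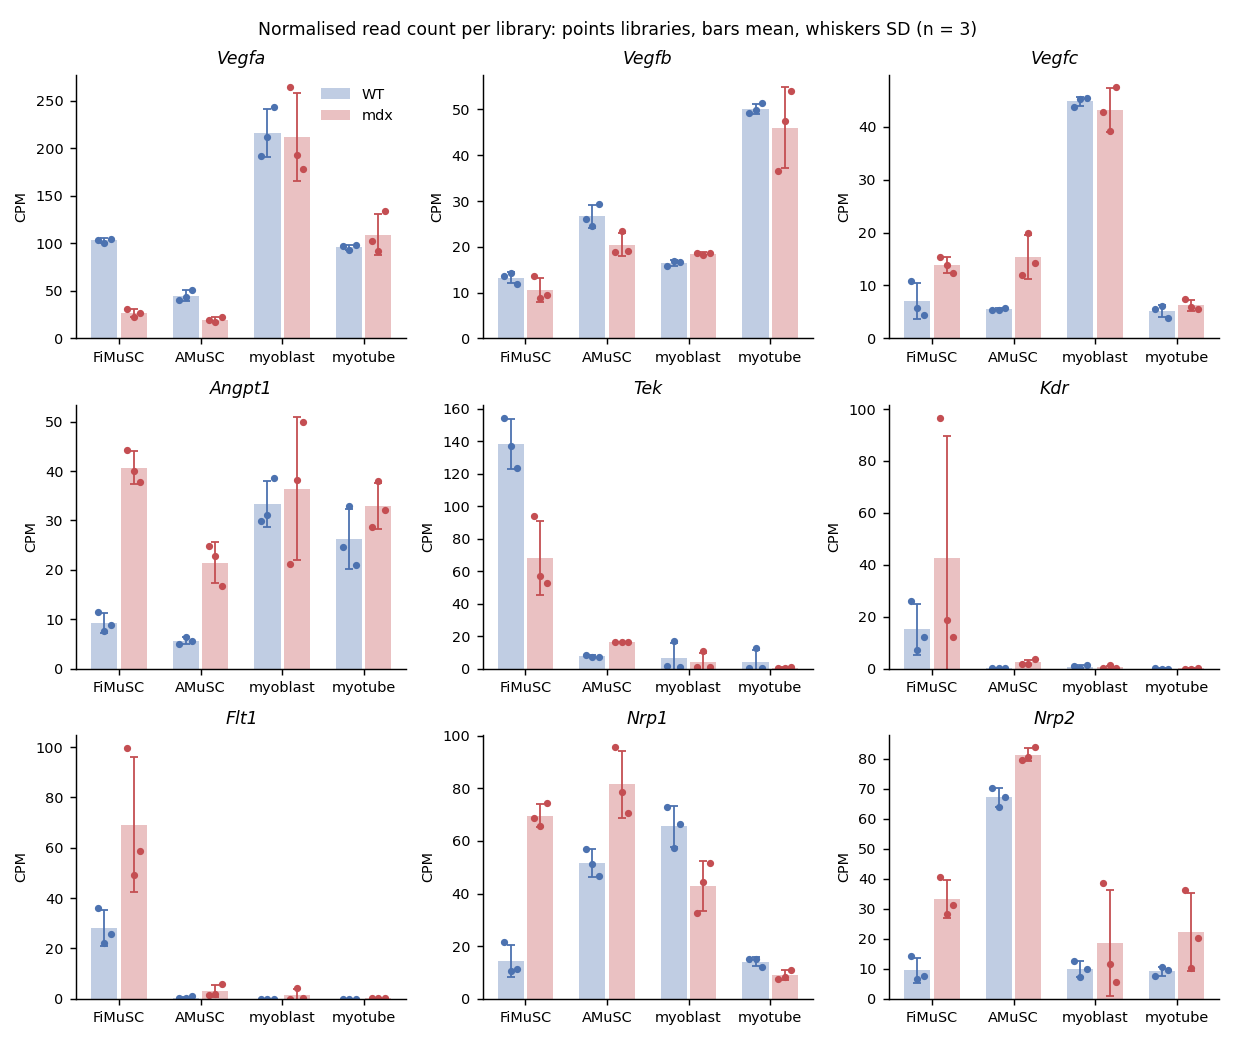
Normalised read count (CPM, linear axis from 0) of the 9 members in FiMuSCs, AMuSCs, myoblasts and myotubes of WT (blue) and *mdx* (red) mice. Points are libraries, bars the mean and whiskers the SD of 3 libraries, with the lower whisker cut off at 0 where the SD exceeds the mean. *Tek*, *Kdr* and *Flt1* were highest in FiMuSCs, *Vegfa* and *Vegfc* in myoblasts and *Vegfb* in myotubes.

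In AMuSCs, 3 days after cardiotoxin, *Vegfa* was again lower in *mdx*. It gave 40.4, 43.2 and 51.3 CPM in WT and 19.6, 16.8 and 22.8 CPM in *mdx*, with no overlap. The log2 fold change was −1.21 ± 0.17 (edgeR adjusted p = 0.00381). *Vegfc* gave 5.34, 5.45 and 5.80 CPM in WT and 12, 19.9 and 14.2 CPM in *mdx*. Every *mdx* library was more than the whole WT range above WT, and the log2 fold change was 1.44 ± 0.21 (edgeR adjusted p = 0.00433). *Angpt1* gave 5.04, 6.37 and 5.50 CPM in WT and 24.8, 22.8 and 16.7 CPM in *mdx*. It was thus higher in all *mdx* libraries here too, by 1.90 ± 0.19 on the log2 scale (edgeR adjusted p = 0.00158). *Vegfb*, at 26.0, 24.5 and 29.3 CPM in WT and 18.9, 23.3 and 19.1 CPM in *mdx*, did not pass with edgeR (log2 fold change −0.41 ± 0.13, adjusted p = 0.0547). It passed with DESeq2 (adjusted p = 0.0133), with edgeR on DESeq2 size factors (adjusted p = 0.0429) and without *mdx* replicate 2 (adjusted p = 0.0233).

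The receptors were low in AMuSCs of both genotypes. *Tek* gave 8.25, 7.29 and 7.31 CPM in WT and 16.5, 16.1 and 16.4 CPM in *mdx*, the reverse of the order in FiMuSCs, with a log2 fold change of 1.07 ± 0.15 (edgeR adjusted p = 0.00407). With the effective transcript length as an offset the *Tek* value was 0.23 (adjusted p = 0.817), and in a fit of all 24 libraries the call was lost (adjusted p = 0.518). In WT AMuSCs the short Tek-204 was estimated at 0.95 ± 1.65 TPM, and the TPM of all *Tek* transcripts was 4.04, 1.06 and 1.05 in the 3 libraries. Over protein-coding transcripts *Tek* was at 1.19, 1.06 and 1.05 TPM in WT and 2.84, 2.32 and 2.92 TPM in *mdx* AMuSCs. *Kdr* rested on 12, 5 and 13 reads in WT AMuSCs and on 87, 107 and 238 reads in *mdx* AMuSCs. That corresponds to 0.102 to 0.213 CPM and 1.59 to 3.60 CPM, and to a log2 fold change of 3.77 ± 0.54 (edgeR adjusted p = 0.00413). *Flt1* rested on 16, 12 and 55 reads in WT and 82, 99 and 395 reads in *mdx*, with a log2 fold change of 2.71 ± 0.78 (edgeR adjusted p = 0.0421). The *Flt1* call was lost without any 1 WT library or *mdx* replicate 3 (adjusted p from 0.0524 to 0.151), and leaving out replicate 3 moved the log2 fold change to 3.60 for the WT library and to 1.75 for the *mdx* library.

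*Nrp1* was higher in *mdx* AMuSCs, at 95.5, 78.6 and 70.7 against 57.1, 51.1 and 46.7 CPM, by a smaller amount than in FiMuSCs. Its log2 fold change was 0.63 ± 0.15 (edgeR adjusted p = 0.0208), a call lost without any 1 WT library (adjusted p from 0.0600 to 0.101). *Nrp2* gave 70.1, 63.9 and 67.3 CPM in WT and 79.6, 80.7 and 83.7 CPM in *mdx*. The groups did not overlap, but the log2 fold change of 0.25 ± 0.10 did not pass (edgeR adjusted p = 0.114).

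In AMuSCs 7 of the 9 members were called, 6 higher and 1 lower in *mdx*, where 23.7% of 19321 genes tested were called, 14.8% higher and 8.95% lower, and 45.5% had groups without overlap. Their median log2 fold change was 1.07, against 0.04 over all genes tested. The count lay between 5 and 8 when single libraries were left out, and was 7 without *mdx* replicate 1, the library with the macrophage sum of 4540 CPM. Among endothelial markers 12 of 15 could be tested and 3 were higher (*Eng*, *Vwf* and *Tie1*), with a median of 1.89. Of the macrophage markers 6 of 11 were higher, with a median of 6.87. Of 8 markers of fibro-adipogenic progenitors, the resident connective tissue cells of muscle, 6 were higher. These 8 summed to 662 to 762 CPM in WT and 1944 to 2949 CPM in *mdx* AMuSCs. In cultured myoblasts they summed to 659 to 813 CPM in WT and 624 to 1215 CPM in *mdx*. Among them the AMuSC means of *Pdgfra* were 1.18 CPM in WT and 3.39 CPM in *mdx*, and those of *Dcn* 1.38 and 3.94 CPM. Of 9 markers of pericytes and smooth muscle 5 were higher and none lower, with a median of 1.19. Their summed level was 1818 to 2624 CPM in *mdx* against 1073 to 1227 CPM in WT. In cultured myoblasts this sum was 1142 to 1461 CPM in WT and 846 to 1377 CPM in *mdx*. It was highest in myotubes, at 6623 to 7206 CPM in WT and 6084 to 6550 CPM in *mdx*. The state of the sorted cells differed too, since 7 of 8 muscle stem cell markers, *Pax7* among them (1.16 ± 0.13, edgeR adjusted p = 0.00193), were higher and 6 of 6 proliferation genes lower in *mdx* AMuSCs. Their part in the members' differences was not tested.

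**Figure D2:**
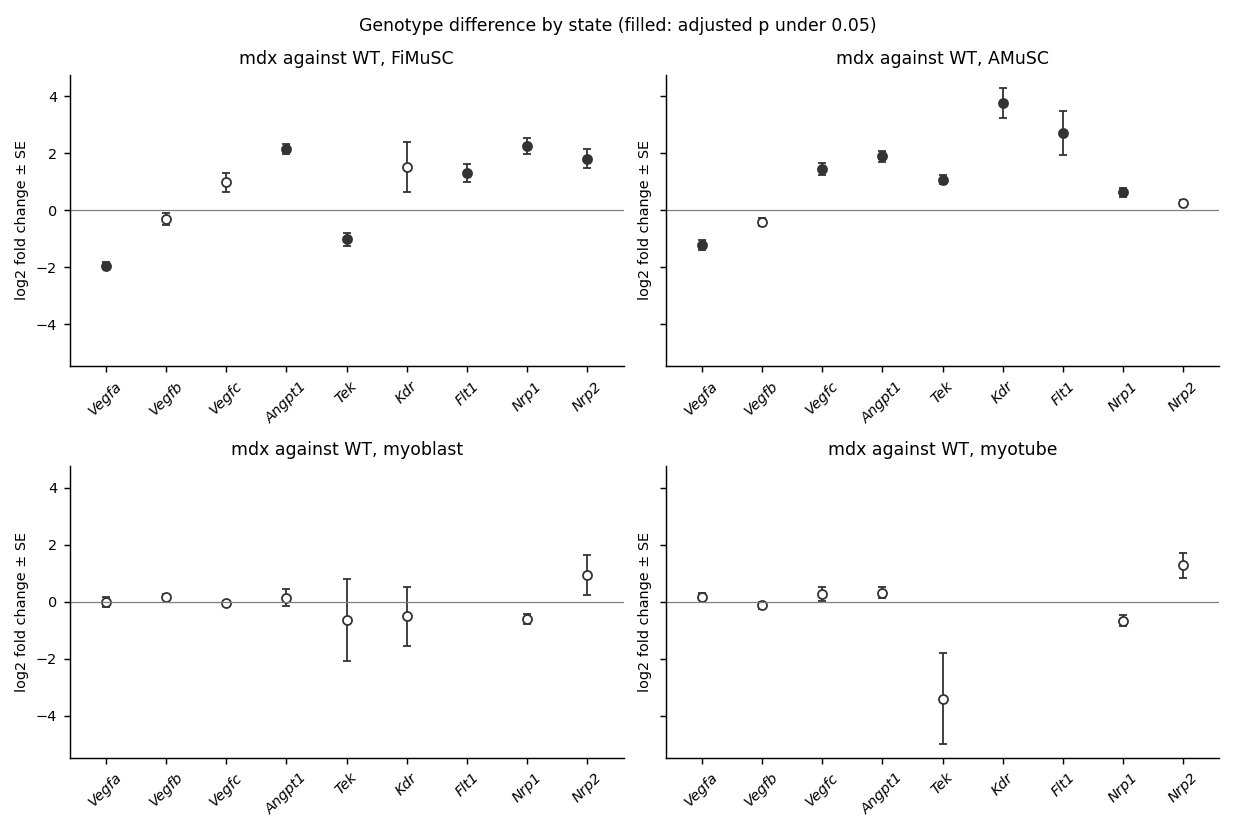
Log2 fold change of *mdx* against WT for each member in the 4 states (points, with whiskers for the SE of the edgeR fit on 6 libraries). Filled points passed an adjusted p under 0.05, and genes too low to be tested have no point. *Vegfa* lay below 0 and *Angpt1* and *Nrp1* above 0 in both FiMuSCs and AMuSCs, and no member was called in myoblasts or myotubes.

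No genotype difference was called in the cultured cells. In myoblasts 0 of the 8 members tested passed with edgeR (0.36% of 17226 genes did). There 1 had an unadjusted p under 0.05, as had 2488 of all genes, and 1 passed with DESeq2, where 958 genes did. In myotubes 0 of the 7 tested passed (0.591% of 16084 genes did). There 2 had an unadjusted p under 0.05, as had 2180 of all genes, and 2 passed with DESeq2, where 713 genes did. *Flt1* was too low to be tested in myoblasts, and *Kdr* and *Flt1* in myotubes. *Nrp1* was the gene that DESeq2 called in both states, lower in *mdx*. It gave 72.9, 57.4 and 66.3 CPM in WT and 32.5, 44.4 and 51.5 CPM in *mdx* myoblasts, with an edgeR log2 fold change of −0.60 ± 0.18 (adjusted p = 0.235, and 0.0234 with DESeq2). In myotubes *Nrp1* gave 15.2, 15.1 and 12.1 CPM in WT and 7.36, 8.40 and 11.1 CPM in *mdx*, or −0.66 ± 0.18 (edgeR adjusted p = 0.206, and 0.0345 with DESeq2). All *mdx* libraries were below all WT libraries in both states, the opposite of the order in the sorted cells, and groups without overlap were seen in 20.9% and 21.1% of all genes tested. *Nrp2* was uneven among the *mdx* cultures, with 38.5, 11.6 and 5.56 CPM in myoblasts and 36.1, 10.3 and 20.2 CPM in myotubes, against 7.25 to 12.5 and 7.56 to 10.5 CPM in WT. DESeq2 called *Nrp2* higher in *mdx* myotubes (adjusted p = 0.0408), where edgeR gave 1.28 ± 0.44 (adjusted p = 0.298).

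Among the ligands no difference was called in culture. *Vegfa* gave 192, 212 and 243 CPM in WT and 264, 193 and 178 CPM in *mdx* myoblasts, with a log2 fold change of −0.02 ± 0.16 (edgeR adjusted p = 0.979). *Vegfc* gave 43.8, 45.2 and 45.4 CPM in WT and 42.8, 39.1 and 47.5 CPM in *mdx* myoblasts, with a log2 fold change of −0.04 ± 0.08 (edgeR adjusted p = 0.850). *Angpt1* gave 30.0, 31.2 and 38.6 CPM in WT and 21.2, 38.2 and 49.95 CPM in *mdx* myoblasts, and 24.7, 32.9 and 21 CPM in WT and 28.7, 37.9 and 32 CPM in *mdx* myotubes. These ranges overlapped, and the log2 fold changes were 0.14 ± 0.30 and 0.32 ± 0.18 (edgeR adjusted p = 0.873 and 0.478). *Tek* was found in single cultured libraries. It gave 16.9 CPM in replicate 2 of WT myoblasts, 12.4 CPM in replicate 2 of WT myotubes and 10.7 CPM in replicate 2 of *mdx* myoblasts, and between 0.117 and 1.84 CPM in the other 9 cultured libraries. In the same *mdx* myoblast library *Flt1* was at 4.38 CPM, *Kdr* at 1.24 CPM, and the macrophage markers summed to 193 CPM, against 9.51 and 12.5 CPM in the other 2 libraries of its group. The 10 markers of differentiated muscle summed to 2567 CPM in WT myoblast replicate 2, against 411 and 463 CPM. In *mdx* myoblast replicate 2 they summed to 967 CPM, against 218 and 233 CPM. The muscle stem cell marker *Calcr* was at 20.8 CPM in that *mdx* library, against 0.103 and 1.09 CPM. In WT myoblast replicate 2 *Calcr* was at 0.0536 CPM, against 0.234 and 0.0849 CPM. The part of other cells in the *Tek* values was not tested.

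After injury the receptors fell in both genotypes. In WT *Tek* went from 124 to 155 CPM in FiMuSCs to 7.29 to 8.25 CPM in AMuSCs, with a log2 fold change of −4.09 ± 0.12 (edgeR adjusted p = 2.82e-07). *Kdr* fell by 6.35 ± 0.64 (edgeR adjusted p = 0.000147) and *Flt1* fell by 5.79 ± 0.55 (edgeR adjusted p = 0.000154) on the log2 scale. The endothelial markers fell with them, 15 of 15 being called lower, where 33.0% of all genes were. Their median log2 fold change was −4.57. In *mdx* *Tek* fell by 2.06 ± 0.24, from 52.4 to 94.1 CPM to 16.1 to 16.5 CPM (edgeR adjusted p = 0.00118). *Kdr* fell by 4.16 ± 0.95 (edgeR adjusted p = 0.0255) and *Flt1* by 4.48 ± 0.68 (edgeR adjusted p = 0.00659). Of 15 endothelial markers 13 were called lower, with a median of −3.86, where 11.7% of all genes were. The part of endothelial RNA in these falls was not tested. Without *mdx* FiMuSC replicate 1 *Kdr* had a log2 fold change of −2.71 (edgeR adjusted p = 0.0088). The *Kdr* call in *mdx* was lost without replicate 2 of either *mdx* group (adjusted p = 0.0525 and 0.0707) and without a filter on low counts (0.0879), and the *Tek* call in a fit of all 24 libraries (0.167).

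**Figure D3:**
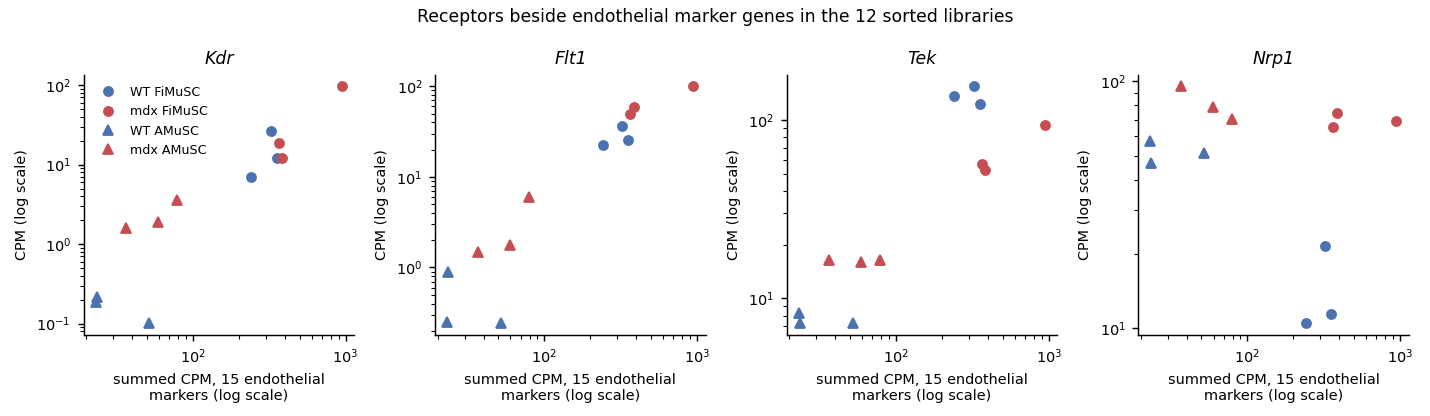
CPM of *Kdr*, *Flt1*, *Tek* and *Nrp1* against the summed CPM of 15 endothelial marker genes in the 12 sorted libraries, both on log axes, with WT in blue, *mdx* in red, FiMuSCs as circles and AMuSCs as triangles. *mdx* FiMuSC replicate 1 has both the highest marker sum, 947 CPM, and the highest *Kdr* and *Flt1*. *Tek* was lower in the *mdx* than in the WT FiMuSCs (edgeR adjusted p = 0.0451), and the marker sums of *mdx* were higher. The part of endothelial RNA in these values was not tested.

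Among the ligands, *Vegfa* fell with injury in WT, from 101 to 105 CPM to 40.4 to 51.3 CPM, by 1.11 ± 0.10 on the log2 scale (edgeR adjusted p = 2.70e-05). In *mdx* the change was −0.44 ± 0.18 and did not pass (edgeR adjusted p = 0.108, and 0.0386 in a fit of all 24 libraries). *Vegfb* rose by 1.10 ± 0.12 in WT (edgeR adjusted p = 6.27e-05) and by 0.94 ± 0.22 in *mdx* (0.0189), the second call being lost without replicate 2 of either *mdx* group (adjusted p = 0.0801 and 0.0542). *Angpt1* fell by 0.62 ± 0.20 in WT (edgeR adjusted p = 0.0246) and by 0.93 ± 0.17 in *mdx* (0.00833). The call in WT was lost without FiMuSC replicate 1 or 3, without AMuSC replicate 1 or 3 (adjusted p from 0.0541 to 0.0919) and with a transcript length offset (0.0518). *Vegfc* was not called in either genotype, with −0.26 ± 0.31 in WT and 0.14 ± 0.23 in *mdx* (edgeR adjusted p = 0.495 and 0.683).

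The co-receptors moved opposite to the receptors. *Nrp2* rose in WT from 6.64 to 14.4 CPM to 63.9 to 70.1 CPM, by 2.92 ± 0.30 on the log2 scale (edgeR adjusted p = 0.000221). In *mdx* it rose from 28.1 to 40.4 CPM to 79.6 to 83.7 CPM, by 1.29 ± 0.16 (edgeR adjusted p = 0.00178, and 0.0560 in a fit of all 24 libraries). *Nrp1* rose by 1.92 ± 0.28 in WT (edgeR adjusted p = 0.00107), from 10.5 to 21.5 CPM to 46.7 to 57.1 CPM. In *mdx* FiMuSCs it was already at 65.6 to 74.4 CPM, and the change of 0.22 ± 0.14 to 70.7 to 95.5 CPM did not pass (edgeR adjusted p = 0.299).

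With injury 8 of 9 members were called in WT, 3 higher and 5 lower, where 64.6% of 19359 genes were called (31.6% higher and 33.0% lower). In *mdx* 6 of 9 were called, 2 higher and 4 lower, where 27.3% of 19650 genes were (15.5% higher and 11.7% lower). The difference between the injury responses was tested over the 12 sorted libraries. It was called for 3 of 9 members, where 15.1% of 21086 genes were called (8.14% with a higher and 6.98% with a lower value in *mdx*). *Tek* fell less in *mdx*, by a difference of 2.01 ± 0.27 (edgeR adjusted p = 0.00112). *Nrp1* rose less, by −1.73 ± 0.32 (edgeR adjusted p = 0.00537), and *Nrp2* rose less, by −1.66 ± 0.34 (edgeR adjusted p = 0.00917). With an offset for transcript length *Tek* was not called (1.40, adjusted p = 0.182), nor was it in a fit of all 24 libraries (adjusted p = 0.399), where the call for *Nrp2* was lost too (0.160). The differences for *Vegfa* (0.64 ± 0.21, edgeR adjusted p = 0.0571, DESeq2 adjusted p = 0.0237) and *Kdr* (2.15 ± 1.18, edgeR adjusted p = 0.257) were not called. Without *mdx* FiMuSC replicate 1 both were, at 0.75 (adjusted p = 0.0312) for *Vegfa* and 3.62 (adjusted p = 0.0121) for *Kdr*, which made 5 of 9. For the same difference 0 of 15 endothelial markers were called with edgeR, with a median of 1.19 against −0.033 over all genes tested. An unadjusted p under 0.05 was found for 3 of them, and for 6318 of all 21086 genes. Called higher, with none lower, were 5 of 8 muscle stem cell markers, 4 of 9 markers of pericytes and smooth muscle, 3 of 8 of fibro-adipogenic progenitors and 1 of 11 of macrophages. Their part in the members' differences was not tested.

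**Figure D4:**
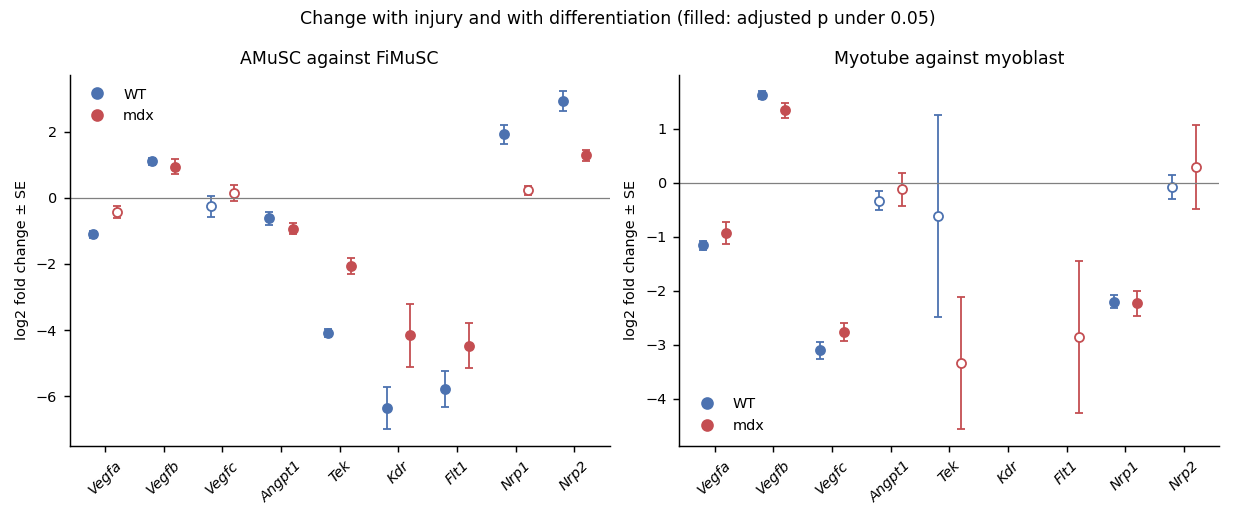
Log2 fold change of the members with injury (AMuSC against FiMuSC, left) and with differentiation (myotube against myoblast, right) in WT (blue) and *mdx* (red), with whiskers for the SE of the edgeR fit on 6 libraries. Filled points passed an adjusted p under 0.05, and genes too low to be tested have no point. With injury the receptors fell and *Nrp2* rose in both genotypes, and with differentiation *Vegfb* rose and *Vegfa*, *Vegfc* and *Nrp1* fell in both genotypes.

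With differentiation *Vegfc* fell most of the called members. It went from 43.8 to 45.4 CPM in WT myoblasts to 3.85 to 6.15 CPM in WT myotubes, a fall by 3.10 ± 0.16 on the log2 scale (edgeR adjusted p = 1.55e-06), and in *mdx* it fell by 2.76 ± 0.17 (8.66e-05). *Nrp1* fell by 2.20 ± 0.12 in WT and by 2.23 ± 0.23 in *mdx* (edgeR adjusted p = 1.92e-06 and 0.000378). *Vegfa* fell by 1.16 ± 0.09 and by 0.93 ± 0.20 (edgeR adjusted p = 9.51e-06 and 0.00783). *Vegfb* was the member that rose, from 15.8 to 16.9 CPM to 49.2 to 51.4 CPM in WT, by 1.62 ± 0.07 (edgeR adjusted p = 6.35e-07), and by 1.34 ± 0.15 in *mdx* (0.000482). In WT 4 of the 7 members tested were called (69.5% of 16907 genes, 34.9% higher and 34.5% lower), and in *mdx* 4 of 8 (52.2% of 17206 genes, 25.8% higher and 26.5% lower). The difference between the genotypes was called for 0 of 9 members with edgeR (0.0592% of 18585 genes) and for 0 with DESeq2. An unadjusted p under 0.05 was found for 0 members and for 2281 of all genes. *Kdr* was at 0 or 1 read in the WT myotube libraries and at 0, 0 and 4 reads in the *mdx* libraries, and it was too low to be tested for this change in either genotype.

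Over the 8 groups the order of mean CPM differed from gene to gene. *Vegfa* was highest in the myoblast groups, which overlapped, and lowest in *mdx* AMuSCs, whose highest library, at 22.8 CPM, was just under the lowest *mdx* FiMuSC library, at 22.9 CPM. *Vegfc* was highest in the myoblast groups, which overlapped, and its lowest 4 groups (WT FiMuSC, *mdx* myotube, WT AMuSC and WT myotube) each overlapped the next. *Angpt1* was lowest in WT AMuSCs and WT FiMuSCs, which did not overlap each other, and its other 6 groups each overlapped the next in order. *Tek* separated WT FiMuSCs and *mdx* FiMuSCs from each other and from every other group. The *mdx* AMuSC libraries, at 16.1 to 16.5 CPM, lay within the range of WT myoblasts, at 1.12 to 16.9 CPM. That range rose above 1.84 CPM through WT myoblast replicate 2 alone. *Flt1* also separated *mdx* and WT FiMuSCs from each other and from the rest, while *Kdr* overlapped between those 2 groups. *Nrp2* was highest in *mdx* and WT AMuSCs, which did not overlap.

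Transcripts with exon 7 but not exon 6 made up most coding *Vegfa* TPM in most groups. Their share was 73.8% ± 6.67 (SD, n = 3) in WT and 60.0% ± 19.2 in *mdx* FiMuSCs, 46.0% ± 0.79 and 52.1% ± 10.0 in AMuSCs, 57.9% ± 2.55 and 70.7% ± 2.79 in myoblasts, and 54.5% ± 10.9 and 54.9% ± 10.1 in myotubes. In myoblasts all *mdx* libraries were above all WT libraries in this share of TPM, and in the other 3 states the genotypes overlapped. Counted in reads instead, the myoblast libraries overlapped too, at 76.8% to 84.2% in WT and 82.2% to 90.7% in *mdx*. The freely diffusing form with neither exon held 14.4% ± 8.35 and 21.7% ± 7.84 in FiMuSCs and 11.1% to 25.6% on average in the other groups. Transcripts with both exons were at most 2.17% on average. As shares of reads the form with exon 7 alone was larger, between 68.5% and 87.2%, and the form with exon 6 alone, whose annotated transcript is 513 bases long, held 1.24% to 3.70% of reads against 11.6% to 29.7% of coding TPM on average. The soluble *Flt1* form held 35% ± 5.97 of coding *Flt1* TPM in WT FiMuSCs and 39.0% ± 10.6 in *mdx* FiMuSCs. Exact two-sided permutation tests of the 9 shares compared between genotypes gave p from 0.1 to 0.9, where 3 libraries against 3 cannot go below 0.1, and adjusted values of 0.9. The split of reads between overlapping transcripts is an estimate.

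**Figure D5:**
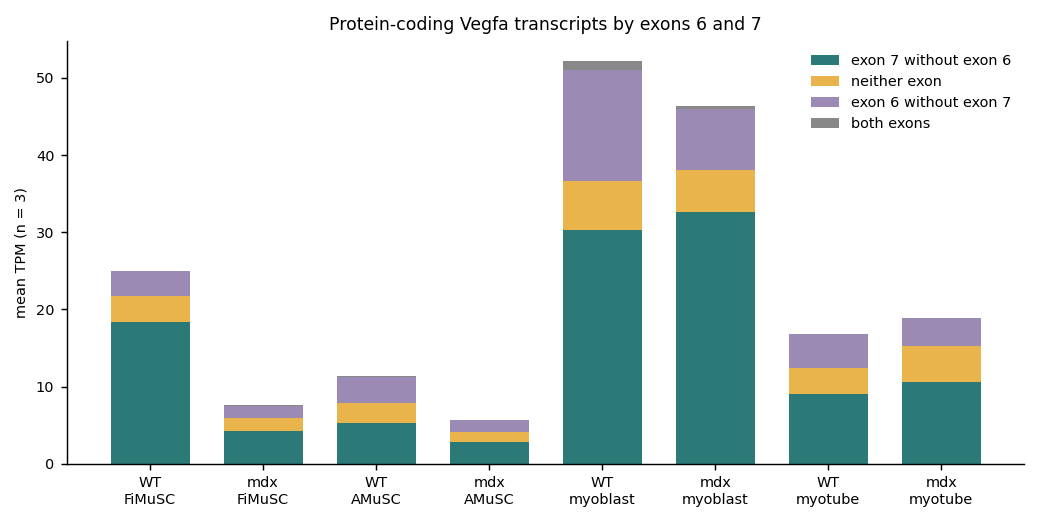
Mean TPM of 3 libraries of the protein-coding *Vegfa* transcripts in the 8 groups, stacked by which of exons 6 and 7 they hold. Bars start at 0. The form with exon 7 alone is the largest part in every group, and the bars of *mdx* FiMuSCs and AMuSCs are lower than those of WT.

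The genes of the same pathways outside the 9 members were followed as a list of 31 ligands, receptors, processing enzymes, semaphorins, plexins and signal carriers. In FiMuSCs 29 could be tested, and 8 were higher and 2 lower in *mdx*, where 5.82% and 3.85% of all genes were. Their median log2 fold change was 0.85. *Sema3a*, a class 3 semaphorin ligand of *Nrp1*, was higher by 3.39 ± 0.29 (edgeR adjusted p = 0.00272), and *Sema3f*, a ligand of *Nrp2*, by 1.62 ± 0.16 (0.00415). *Angpt2*, which mostly opposes angiopoietin 1 at TIE2, was higher by 2.23 ± 0.45 (edgeR adjusted p = 0.0301). Lower were *Sema3b*, with −1.73 ± 0.19 (0.00523), and the proprotein convertase *Pcsk5*, with −1.31 ± 0.14 (0.00498). The other TIE receptor gene, *Tie1*, gave 1.41 ± 0.49 and the VEGF-C receptor gene *Flt4* 1.21 ± 0.58, neither past the test (edgeR adjusted p = 0.13 and 0.249). In AMuSCs 9 of 29 were higher and 1 lower, with a median of 0.62, where 14.8% of all genes were higher and 8.95% lower. *Sema3g* was higher by 4.04 ± 0.26 (edgeR adjusted p = 0.000752), *Sema3a* by 1.85 ± 0.16 (0.000920) and the semaphorin receptor gene *Plxnd1* by 1.01 ± 0.13 (0.00308). *Tie1* was higher by 3.47 ± 0.72 (0.0144), from a low level of 0.110 to 0.225 CPM in WT and 0.567 to 3.37 CPM in *mdx*. *Tie1* and *Ptprb* are also among the endothelial markers. In myoblasts 0 of 28 passed with edgeR (0.36% of all genes did), and 7 had an unadjusted p under 0.05 (2488 of 17226 genes did). In myotubes 1 of 24 was lower, *Sema3e*, with −0.56 ± 0.08 (edgeR adjusted p = 0.0456), where 0.591% of all genes were called.

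With injury 10 of the 29 genes tested were higher and 11 lower in WT, where 64.6% of all genes were called, and 6 higher and 9 lower in *mdx*, where 27.3% were. The plexin gene *Plxna1*, whose protein signals with *Nrp1*, rose by 3.42 ± 0.18 in WT (edgeR adjusted p = 2.57e-06) and by 1.66 ± 0.26 in *mdx* (0.00395). With differentiation 10 of 24 were higher and 9 lower in WT (69.5% of all genes called), and 6 of 27 higher and 7 lower in *mdx* (52.2%). There *Pgf*, a further ligand of *Flt1*, had log2 fold changes of −3.41 ± 0.14 in WT and −3.41 ± 0.21 in *mdx* (edgeR adjusted p = 5.26e-07 and 8.69e-05), and *Ccbe1*, which is needed to process VEGF-C, of −4.43 ± 0.30 and −4.41 ± 0.47 (6.08e-06 and 0.000549), the same direction as *Vegfc*.

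*Vegfa* is itself a target of the hypoxia-inducible factors, and 25 hypoxia factors and targets were followed beside it. In FiMuSCs 4 of the 24 tested were higher and 1 lower in *mdx*, where 5.82% and 3.85% of all genes were. Their median log2 fold change was 0.25. *Pdk1*, a glycolytic switch kinase, had the direction of *Vegfa* (−1.52 ± 0.19, edgeR adjusted p = 0.00698). *Ndrg1* (0.96 ± 0.15, adjusted p = 0.0127), *Bnip3* (0.76 ± 0.15, 0.0283), the factor genes *Epas1* (1.43 ± 0.34, 0.0474) and *Hif1a* (0.84 ± 0.20, 0.0490) had the opposite one. In AMuSCs 7 of 25 were higher and 3 lower, with a median of 0.39, where 14.8% and 8.95% of all genes were. *Epas1* was higher by 2.12 ± 0.27 (edgeR adjusted p = 0.00300). With injury in WT 7 of 25 were higher and 12 lower, where 31.6% and 33.0% of all genes were. The median of the 25 was −0.89, the direction of *Vegfa*, against −0.076 over all genes tested. There *Vegfa* fell, and *Pgk1* rose by 2.90 ± 0.11 (edgeR adjusted p = 5.07e-07) and *Ldha* by 2.52 ± 0.11 (7.72e-07), both enzymes of glycolysis. *Epas1* fell by 3.97 ± 0.28 (edgeR adjusted p = 1.43e-05). In *mdx* 3 of 25 were higher and 7 lower with injury, where 15.5% and 11.7% of all genes were. The median there was −0.21, against −0.017 over all genes tested. In myoblasts and myotubes 0 of 23 passed between genotypes with edgeR, with 3 and 7 at an unadjusted p under 0.05. Over all genes 0.36% and 0.591% passed, and 2488 of 17226 and 2180 of 16084 had an unadjusted p under 0.05.

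Likeness of pattern was measured as the Pearson correlation of log2 CPM over all 24 libraries with 10543 protein-coding genes, and is a description, since the libraries share their states and genotypes. *Vegfb* was most like *Taco1* (r = 0.984), *Cox5b* and *Ndufb8* (both 0.978), which encode a mitochondrial translation activator and subunits of cytochrome oxidase and complex I. The 3 closest to *Vegfc* were *Tm4sf1* (0.966), *Mfge8* (0.955) and 4930402H24Rik (0.951). *Tek* was closest to *Jun* (0.932), *Prex2* (0.931) and *Ace* (0.929). For *Flt1* they were *Txnip* (0.964), *Dnm3* (0.955) and *Bicral* (0.954), and for *Kdr* they were *Bicral* (0.938), the endothelial marker *Eng* (0.934) and *Crtc3* (0.931). *Vegfa* had *Dchs1* (0.924), *Zbtb26* (0.911) and *Adgrl1* (0.907), *Nrp1* had *Gpc6* (0.925), *Iqgap1* (0.918) and *Casp8* (0.911), and *Angpt1* had the growth factor gene *Pdgfc* (0.899), *Pcdh7* (0.846) and *Ttc12* (0.838). *Nrp2* had *Mms19* (0.847), BC034090 (0.846) and *Glis2* (0.842).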

How the data were processed

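RNA-seq was performed in triplicate on 4 cell states of 2 genotypes. The deposited values are, per transcript, expected counts (estimated reads), TPM and effective lengths. Salmon 0.13.1, DESeq2 and GRCm38 appear in the submitters' notes on processing by the authors, with no role given. Their annotation release and strand setting are not given in the sources used here. Expected counts were summed per gene and rounded, and 53355 of 53392 genes were matched to GENCODE M21 by gene ID. In R 4.3.3, filterByExpr removed low genes, TMM set the scale, and the robust quasi-likelihood test of edgeR 4.0.16 (two-sided) was run on the libraries of each comparison, with Benjamini-Hochberg adjustment over all genes tested and a threshold of 0.05. The steps were tested on simulated data. CPM use TMM factors over all 24 libraries. Likeness was sought among protein-coding genes with a mean log2 CPM of at least 2, with 1 CPM added before the log. DESeq2 1.42.0, its size factors, no filter, a transcript length offset, one fit of all libraries, left-out libraries and the replicate number as a block were alternatives. For TPM levels, protein-coding transcripts alone were chosen after seeing the data. The members and lists were chosen with earlier results of these data known. Of each list other than the members, at most the 6 genes with the smallest p that passed were to be named per comparison, and *Angpt2*, *Tie1* and *Flt4* in FiMuSCs are named beside them after their values were seen. Library totals were 37280196 to 64429222 reads, and *Kdr* and *Flt1* outside FiMuSCs rested on 0 to 395 reads.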

Additional observations from a re-analysis of the deposited data

Results flagged for a closer look

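For 3 members the change with injury differed between the genotypes by the test of the difference itself, over the 12 sorted libraries. *Tek* fell in both genotypes, and the difference of *mdx* minus WT was 2.01 on the log2 scale. *Nrp1*, which rose with injury in WT, had a difference of −1.73, and *Nrp2*, which rose in both, had a difference of −1.66. In each case the genotypes already differed before injury, and the log2 fold changes of *mdx* against WT in AMuSCs were 1.07 for *Tek*, 0.63 for *Nrp1* and 0.25 for *Nrp2*, the last not past the test (edgeR adjusted p = 0.114). With a transcript length offset the *Tek* value in AMuSCs was 0.23 (adjusted p = 0.817) and its difference 1.40 (adjusted p = 0.182), and in a fit of all 24 libraries neither the *Tek* difference (adjusted p = 0.399) nor that of *Nrp2* (0.160) was called.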

How the results depend on the processing

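Groups of 3 limit every call, and most calls near the threshold changed when 1 library was left out. With single libraries left out, the number of members called ranged from 3 to 6 in FiMuSCs and from 3 to 5 for the difference of the injury responses. DESeq2 called 1 member between myoblasts and 2 between myotubes, and a fit of all 24 libraries called 1 between myoblasts. In that fit *Nrp1* did not pass (edgeR adjusted p = 0.169), and the call was for *Flt1*. The main fit did not test *Flt1*, which had 2, 4 and 0 reads in WT and 5, 243 and 16 reads in *mdx* myoblasts. Of all values of single members under the alternatives, 1015 kept direction and side of the threshold, 44 lost the call, 22 gained it and 35 changed sign. With a transcript length offset *Vegfc* changed by −0.079 with injury in *mdx*, and the difference of differentiation responses of *Nrp1* was 0.0138. The other changes of sign came from leaving out single libraries, in values that were not called. Between myoblasts these log2 values ranged from −2.80 to 1.52 for *Tek*, −0.21 to 0.0873 for *Vegfa*, −2.24 to 0.0497 for *Kdr*, −0.18 to 1.35 for *Nrp2*, −0.13 to 0.0157 for *Vegfc* and −0.16 to 0.41 for *Angpt1*, and between myotubes from −4.01 to 0.55 for *Tek*. With injury *Vegfc* ranged from −0.47 to 0.19 in WT and −0.0891 to 0.31 in *mdx*, and in the difference from −0.0835 to 0.61, where *Vegfb* ranged from −0.31 to 0.0361. With differentiation in WT *Nrp2* ranged from −0.26 to 0.12 and *Tek* from −4.58 to 1.56, and in *mdx* *Angpt1* from −0.40 to 0.18 and *Nrp2* from −0.26 to 1.41. In the difference of differentiation responses the ranges were −0.18 to 0.16 for *Nrp1*, −4.86 to 1.29 for *Tek*, −3.05 to 1.00 for *Flt1*, −0.0398 to 0.55 for *Angpt1*, −0.19 to 1.51 for *Nrp2* and −1.64 to 4.17 for *Kdr*. The causes were not tested.

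Counts over all genes also moved. In FiMuSCs 1876 genes were called, 3341 with DESeq2, 1223 with a length offset and 511 to 2503 with single libraries left out. In AMuSCs the count of 4582 became 2889 with a length offset and 1416 to 6305 with libraries left out. Between myoblasts 62 became 958 with DESeq2, 124 without a filter, 27 with a length offset, 432 in a fit of all libraries and 9 to 125 with libraries left out, and between myotubes 95 became 713, 196, 54, 250 and 14 to 235 in the same order. For injury in *mdx* 5357 became 2663 to 5919 with libraries left out, and for the difference of injury responses 3189 became 1779 with a length offset and 1793 to 4878. For the difference of differentiation responses 11 became 335 with DESeq2, 7 with its size factors, 1 with a length offset, 7 in a fit of all libraries and 0 to 15.

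Most same-numbered libraries did not deviate together, with 3 of 24 correlations over 0.1 (range −0.158 to 0.357), and the replicate numbers were not taken as pairs. In culture, *Tek* was highest in replicate 2 of both WT groups and *Nrp2* in replicate 1 of both *mdx* groups. Whether these share a preparation is not given in the sources used here. With the block *Tek* changed by −1.45 with differentiation in WT (edgeR adjusted p = 0.0832), against −0.62 without it (0.790). With the replicate block 6 members were called in FiMuSCs, 7 in AMuSCs, 7 and 5 with injury in WT and *mdx*, and 4 for the difference of injury responses. Over all genes the block gave 1148 calls in FiMuSCs, 7 between myoblasts, 15 between myotubes and 0 for the difference of differentiation responses. TPM over protein-coding transcripts, chosen after seeing the data, lowered *Tek* in WT FiMuSCs from 46.7 to 25.6 and *Vegfa* from 65.7 to 25.0.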
